A study of Mus musculus with 3 samples.

Results

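The mRNA levels of the epidermal growth factor (EGF) receptor family and its ligands were compared in 3 murine colon adenocarcinoma lines. The family was represented by 10 genes, taken by name: the receptors *Egfr*, *Erbb2* and *Erbb3*, and the ligands *Areg*, *Ereg*, *Hbegf*, *Tgfa*, *Btc*, *Epgn* and *Nrg1*. They were measured by 16 probes, out of 56605 probes on the array and 22911 genes that could be named. In LuM1 cells, *Egfr* and 2 of its ligands, *Areg* and *Tgfa*, had a signal at least 2-fold above that of both other lines, while *Ereg*, *Hbegf* and *Erbb2* were less than 2-fold apart between any pair of lines at the main scaling. On its brighter probe, the *Btc* signal was dim in Colon26 and NM11 cells and dimmer in LuM1 cells, where it was not well above background. The other *Btc* probe was not well above background in any line.

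Colon26 is the parental line, LuM1 its high-metastatic subline and NM11 its low-metastatic subline. All 3 lines derive from female BALB/c mice, are given with no treatment other than culture, and were kept in serum-containing RPMI1640 with antibiotics in the same way. After 3 days of culture, 0.1 µg of total RNA of each line was labelled with Cy3 and hybridised to 1 single-colour array, with the 3 arrays on 1 slide. With 1 array per line, no difference has a replicate check, no test was made, and the errors given are the scanner software's own estimate for a spot, which leaves out the spread between cultures. The comparisons ask which genes set the metastatic subline apart from its parent and from the subline of low metastatic potential.

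The EGF receptor and its relatives are tyrosine kinases of the cell surface that act as pairs. EGF, amphiregulin (*Areg*) and transforming growth factor alpha (*Tgfa*) bind EGFR, whereas epiregulin (*Ereg*), betacellulin (*Btc*) and heparin-binding EGF-like growth factor (*Hbegf*) bind both EGFR and ERBB4, and neuregulin 1 (*Nrg1*) binds ERBB3 and ERBB4. ERBB2 has no known ligand of its own and serves as a partner. Most of the ligands are made as membrane-bound precursors that metalloproteases cut from the cell surface, and in the intestinal epithelium EGFR signalling is known for driving crypt cell growth and repair.

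The promoters of *Areg*, *Tgfa* and *Egfr* are shown because these are the genes whose signal in LuM1 cells stood above that of each other line. Each sequence is the 250 bases before the RefSeq gene start on the plus strand of the mouse assembly GRCm38.p6, at chr5:91139349-91139598 for *Areg*, chr6:86194972-86195221 for *Tgfa* and chr11:16751953-16752202 for *Egfr*. Capitals mark matches to the cyclic AMP response element TGACGTCA, the GC box GGGCGG (on either strand) and the TATA box TATAAA.
Areg: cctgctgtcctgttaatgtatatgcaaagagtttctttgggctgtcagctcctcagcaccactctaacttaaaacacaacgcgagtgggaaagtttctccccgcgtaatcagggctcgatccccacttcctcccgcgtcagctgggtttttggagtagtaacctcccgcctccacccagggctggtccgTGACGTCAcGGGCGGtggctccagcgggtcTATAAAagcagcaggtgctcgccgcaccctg
Tgfa: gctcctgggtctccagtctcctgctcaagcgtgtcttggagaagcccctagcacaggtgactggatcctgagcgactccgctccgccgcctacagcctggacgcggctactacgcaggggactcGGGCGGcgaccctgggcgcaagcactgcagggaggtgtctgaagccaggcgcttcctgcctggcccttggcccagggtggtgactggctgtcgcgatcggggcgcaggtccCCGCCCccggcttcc
Egfr: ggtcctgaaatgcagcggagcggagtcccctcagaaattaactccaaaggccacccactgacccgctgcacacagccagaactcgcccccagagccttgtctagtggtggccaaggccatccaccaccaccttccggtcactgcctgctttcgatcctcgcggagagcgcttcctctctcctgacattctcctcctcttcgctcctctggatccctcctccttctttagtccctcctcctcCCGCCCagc

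The *Areg* window held the cyclic AMP response element at -61 to -54 from the gene start, a GC box at -52 to -47 and a TATA box at -31 to -26. The *Tgfa* window held GC boxes at -126 to -121 and at -15 to -10, and the *Egfr* window held a GC box at -9 to -4. Searched on both strands in all 32851 mouse promoter windows of the same length, the cyclic AMP response element stood in 1.55%, the GC box in 32.7% and the TATA box in 12.4%. The AP-1 site TGANTCA, found in 6.75% of windows, and the CCAAT box, found in 33.8%, matched none of the 3 windows. The letters of the element and of the GC box in *Areg* do not overlap. The GC content was 57.2% for *Areg*, 69.2% for *Tgfa* and 60.8% for *Egfr*, against a median of 52.4% over all windows. Windows were given for 6 of the 10 genes, the others being *Epgn*, *Erbb2* and *Btc*. These matches describe the letters of the windows, and no factor binding was measured.

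The arrays were of like quality. The 75th percentile of the deposited signal was 551.5 to 625.1 and was brought to 585.1 on each array, giving the scaled signal used below. Between 49.9% and 53.8% of probes were well above background, the scanner software's mark for a spot clearly brighter than its surroundings, and no spot was saturated. Within 10 rows and columns of each spot of the 10 genes, at most 2.42% of spots were at least 4-fold brighter on the Colon26 array than on both others, where 1.75% were on the whole array. The lowest scaled signal well above background was 26.4 on the Colon26 array, 20.1 on that of LuM1 and 19.6 on that of NM11. In the ratios at the main setting, a signal not well above background is used only as a bound. The summed signals of marker lists given below include such spots. The internal control *Hprt* had a scaled signal of 11101 in Colon26, 10351 in LuM1 and 15573 in NM11 cells.

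The label of colon adenocarcinoma was set against marker genes. Of 12 markers of colon epithelium, 5 were well above background in Colon26, 6 in LuM1 and 5 in NM11 cells, and *Cdh1*, *Krt18*, *Krt19*, *Cdx1*, *Vil1* and *Muc2* were not on any array. *Krt8*, *Krt20*, *Cdx2*, *Lgals4* and *Cldn7* were well above background on every array, and *Epcam* in LuM1 cells only. *Cdx2*, an intestinal transcription factor, read 443 in Colon26, 232 in LuM1 and 167 in NM11 cells, and *Krt20*, a keratin of the gut lining, read 651, 54.5 and 157. In the same order, *Lgals4* read 198, 71.7 and 68.2, and *Cldn7* 91.4, 58.1 and 93.6. *Krt8* went the other way and was brightest in LuM1 cells (28.9, 108 and 37.1). The summed signal of the list, led in Colon26 cells by *Krt20* and *Cdx2*, was 1459 in Colon26, 588 in LuM1 and 558 in NM11 cells. Of 12 markers of mesenchymal cells, 9 were well above background in Colon26 and 11 in each subline, with a summed signal of 248300, 297700 and 317400 in Colon26, LuM1 and NM11 cells. The lines are called by their names below, since part of the epithelial markers, the adhesion gene *Cdh1* among them, was not well above background.

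Of the 10 family genes, 6 were well above background in Colon26, 7 in LuM1 and 7 in NM11 cells, where 56.9% to 59.9% of all named genes were. *Erbb2*, *Areg*, *Ereg*, *Hbegf* and *Nrg1* were so on every array, *Erbb3* and *Epgn* on none. Counting bounds, 3 of the 8 family genes that could be compared exceeded their Colon26 signal by at least 2-fold in LuM1 cells, and 1 was lower. Over all genes, 12.9% were higher and 11.7% lower by the same rule. Against NM11 cells, 3 of 8 were higher in LuM1 cells and 2 lower, with 11.1% and 8.5% over all genes. Against both lines at once, 3 of 8 were higher (*Egfr*, *Areg* and *Tgfa*) and 1 lower (*Btc*), where 7.33% and 4.03% of all genes were. These comparisons share the LuM1 array. Between the other lines, 2 of 7 family genes (*Egfr* and *Areg*) stood at least 2-fold above Colon26 cells in NM11 cells and 0 below, where 8.17% and 7.74% of all genes were. The genes measured on both arrays of a pair had a median log2 ratio of -0.78 for LuM1 over Colon26 cells (5 genes, of which 4 were lower and 1 higher) and of -0.20 for LuM1 over NM11 cells (6 genes, 4 lower and 2 higher), beside -0.13 and -0.11 over all genes. Genes that enter as bounds are not in these medians, which leaves *Tgfa* and *Btc* out of both and *Egfr* out of the first.

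**Figure D1:**
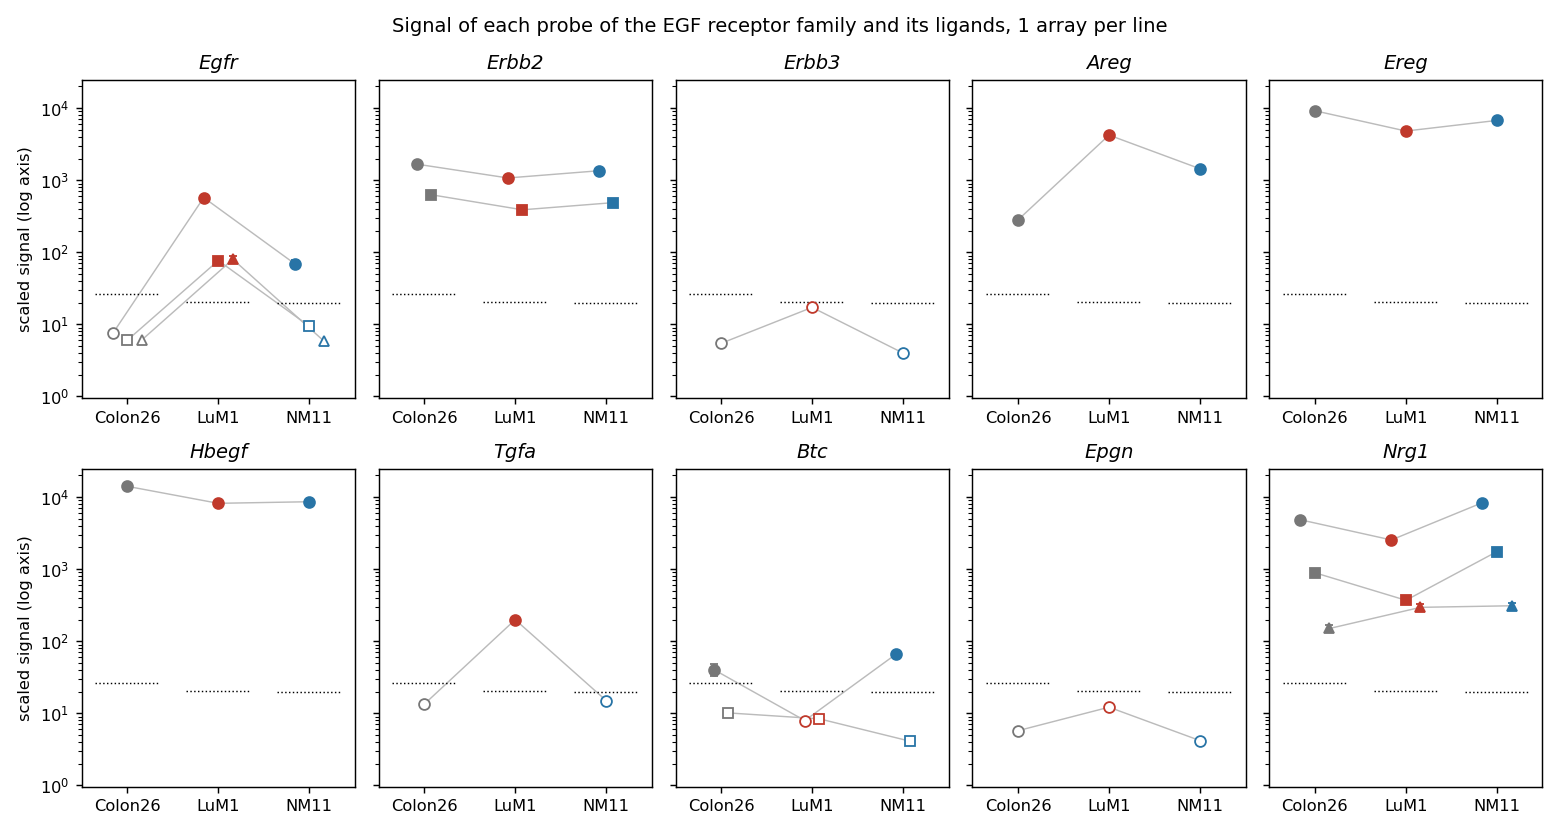
Scaled signal (log scale) of the 16 probes of the 10 family genes in Colon26, LuM1 and NM11 cells, 1 array per line, with filled points for spots well above background, open points for spots that were not, bars on the filled points for the scanner error, and dotted lines for the lowest signal well above background on each array. *Areg* ran from 281 in Colon26 to 4227 in LuM1 cells, while the *Erbb3* and *Epgn* spots were open on every array.

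Among the receptors, *Egfr*, the receptor for EGF, amphiregulin and TGF-alpha, was brightest in LuM1 cells on each of its 3 probes. On the brightest probe (NM_207655) its scaled signal was 7.46 ± 5.47 (scanner error) in Colon26, 574 ± 57.5 in LuM1 and 69.3 ± 7.98 in NM11 cells. The Colon26 spot was not well above background, and LuM1 lay far above NM11. The LuM1 signal was at least 21.7-fold higher than that of Colon26 and 8.29-fold higher than that of NM11 (log2 ratio 3.05, scanner error 0.22). Of 12851 genes measured in both sublines, 128 (0.996%) had a ratio at least as high. Of 1150 genes with such an at-least bound for LuM1 over Colon26 cells, 118 (10.3%) had one at least as high. NM11 cells were at least 2.62-fold above Colon26 cells (log2 ratio 1.39), a call lost with scaling to *Hprt* (0.90), with normexp background correction (0.85) and at a 4-fold threshold.

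The other *Egfr* probes were dimmer and pointed the same way. One (NM_007912) had a signal of 76.7 ± 9.01 in LuM1 cells, with 6.0 in Colon26 and 9.43 in NM11 cells, both not well above background. The LuM1 signal was at least 2.91-fold that of Colon26 and at least 3.92-fold that of NM11 cells. The third (NM_207655) read 80.0 ± 9.21 in LuM1, 6.07 in Colon26 and 5.87 in NM11 cells, for bounds of at least 3.03-fold and at least 4.09-fold. Both gave only bounds, so their size cannot be set against that of the first probe, and the difference between NM11 and Colon26 cells was seen on 1 of the 3 probes.

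*Erbb2*, the partner receptor without a ligand of its own, was well above background in every line and differed little. Its signal was 1670 ± 167 in Colon26, 1074 ± 108 in LuM1 and 1352.5 ± 135 in NM11 cells. The order ran from Colon26 down to LuM1, with NM11 between them. The log2 ratio was -0.64 for LuM1 over Colon26 cells (scanner error 0.20) and -0.33 for LuM1 over NM11 cells, which turned to 0.26 when the arrays were scaled to *Hprt* and to 0.08 in the authors' processed values. The other probe gave -0.69 and -0.33.

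*Erbb3*, a kinase-impaired receptor for neuregulins, was not well above background on any array. Its scaled signal was 5.44 in Colon26, 17.2 ± 4.54 in LuM1 and 3.99 in NM11 cells, and only the LuM1 spot was significantly above background, a looser mark. No ratio is given. Of the family's other receptor, *Erbb4*, the probe was not well above background on any array.

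Amphiregulin was the ligand with the widest range among those measured in every line. The *Areg* signal was 281 ± 28.6 in Colon26, 4227 ± 423 in LuM1 and 1441 ± 144 in NM11 cells (NM_009704). Each step in this order was larger than the scanner error. LuM1 was 15.0-fold above Colon26 (log2 ratio 3.91, scanner error 0.21) and 2.93-fold above NM11 (1.55, scanner error 0.20), and NM11 was 5.13-fold above Colon26 (2.36). A ratio of LuM1 to Colon26 cells at least as high was seen in 108 of 12397 genes (0.871%), and of LuM1 to NM11 cells in 515 of 12851 genes (4.01%). *Areg* kept a ratio of LuM1 to Colon26 cells of 2-fold or more under each of the 11 alternative settings. Against both lines it was below the threshold under 1 of them, the 4-fold threshold.

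The *Tgfa* signal was well above background in LuM1 cells and not in the other lines, where it was dim but still significantly above background. It was 13.3 ± 6.36 in Colon26, 199 ± 20.5 in LuM1 and 15.0 ± 4.80 in NM11 cells (NM_031199), the first and the last not well above background. LuM1 cells were at least 7.54-fold above Colon26 and at least 10.2-fold above NM11 cells. Among the genes with such a bound, 268 of 1150 (23.3%) and 141 of 867 (16.3%) had one at least as high. No ratio is given between NM11 and Colon26 cells, since neither spot was well above background.

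Epiregulin and HB-EGF were brightest in Colon26 cells, where amphiregulin was dimmest. The *Ereg* signal was 9198 ± 920 in Colon26, 4811 ± 481 in LuM1 and 6757 ± 676 in NM11 cells (NM_007950). Colon26 was highest, and the log2 ratio was -0.94 for LuM1 over Colon26 cells (scanner error 0.20). For LuM1 over NM11 cells it was -0.49, which turned to 0.10 with scaling to *Hprt*. The *Hbegf* signal was 14113 ± 1411 in Colon26, 8196 ± 820 in LuM1 and 8625 ± 863 in NM11 cells (NM_010415), so both sublines lay below the parent. Its log2 ratio was -0.78 for LuM1 and -0.71 for NM11 over Colon26 cells, the latter -1.20 with scaling to *Hprt*. The sublines differed from each other by less than the scanner error (-0.07, error 0.20), and this difference was above 0 without scaling (0.11), with scaling to *Hprt* (0.52), after quantile normalization (0.20) and also in the authors' processed values (0.34).

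*Epgn*, *Ereg*, *Areg* and *Btc* are consecutive protein-coding genes on chromosome 5, the other family genes lying on chromosomes 6, 8, 10, 11 and 18. Their signals did not move as a block. The log2 ratio of *Areg* exceeded that of its neighbour *Ereg* by 4.85 for LuM1 over Colon26 cells (scanner error 0.29) and by 2.04 for LuM1 over NM11 cells (error 0.29), differences that scaling by 1 factor per array cannot move.

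*Btc*, which encodes betacellulin, was dimmest in LuM1 cells on its brighter probe. There its signal was 40.4 ± 7.73 in Colon26, 7.92 ± 5.10 in LuM1 and 65.9 ± 8.09 in NM11 cells (NM_007568), and the LuM1 spot was significantly but not well above background. LuM1 cells were at least 2.0-fold below Colon26 and at least 3.27-fold below NM11 cells. The first of these bounds lies at the threshold, and the count of genes lower in LuM1 than in Colon26 cells was 0 under 7 of the 11 alternatives. The other levels were dim too, and the log2 ratio of NM11 over Colon26 cells was 0.71 (scanner error 0.33). The other *Btc* probe was not well above background on any array, with signals of 10.1, 8.37 and 4.08 in Colon26, LuM1 and NM11 cells, of which the first and second were significantly above it.

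Epigen (*Epgn*), a further EGFR ligand, was not well above background on any array. Its signal was 5.73 in Colon26, 12.1 ± 4.64 in LuM1 and 4.17 in NM11 cells. As for *Erbb3*, only the LuM1 spot was significantly above background.

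Neuregulin 1, the ligand of ERBB3 and ERBB4, was highest in NM11 and lowest in LuM1 cells on 2 of its 3 probes. The brightest (NM_178591) read 4848 ± 485 in Colon26, 2542 ± 254 in LuM1 and 8366 ± 837 in NM11 cells. The log2 ratio was -0.93 for LuM1 over Colon26 cells and -1.72 for LuM1 over NM11 cells, and 256 of 12851 genes (1.99%) had a ratio to NM11 as low or lower. The second probe for the same transcript gave 891 in Colon26, 370 in LuM1 and 1753 in NM11 cells, with log2 ratios of -1.27 and -2.24. Both probes put LuM1 last.

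The third *Nrg1* probe, which matches another transcript model (XM_006509059), gave another order. Its signal was 150 ± 16 in Colon26, 295 ± 29.8 in LuM1 and 310 ± 31.3 in NM11 cells. LuM1 was 1.97-fold above Colon26 (log2 ratio 0.98, scanner error 0.21) and within the scanner error of NM11 (-0.07). The log2 ratio of LuM1 over Colon26 cells differed by 1.91 between the brightest and this probe (-1.91, scanner error 0.29), whereas that of NM11 over Colon26 cells differed by less than its error (-0.26, error 0.29). *Nrg1* is therefore given per probe, and its counts above rest on the brightest.

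**Figure D2:**
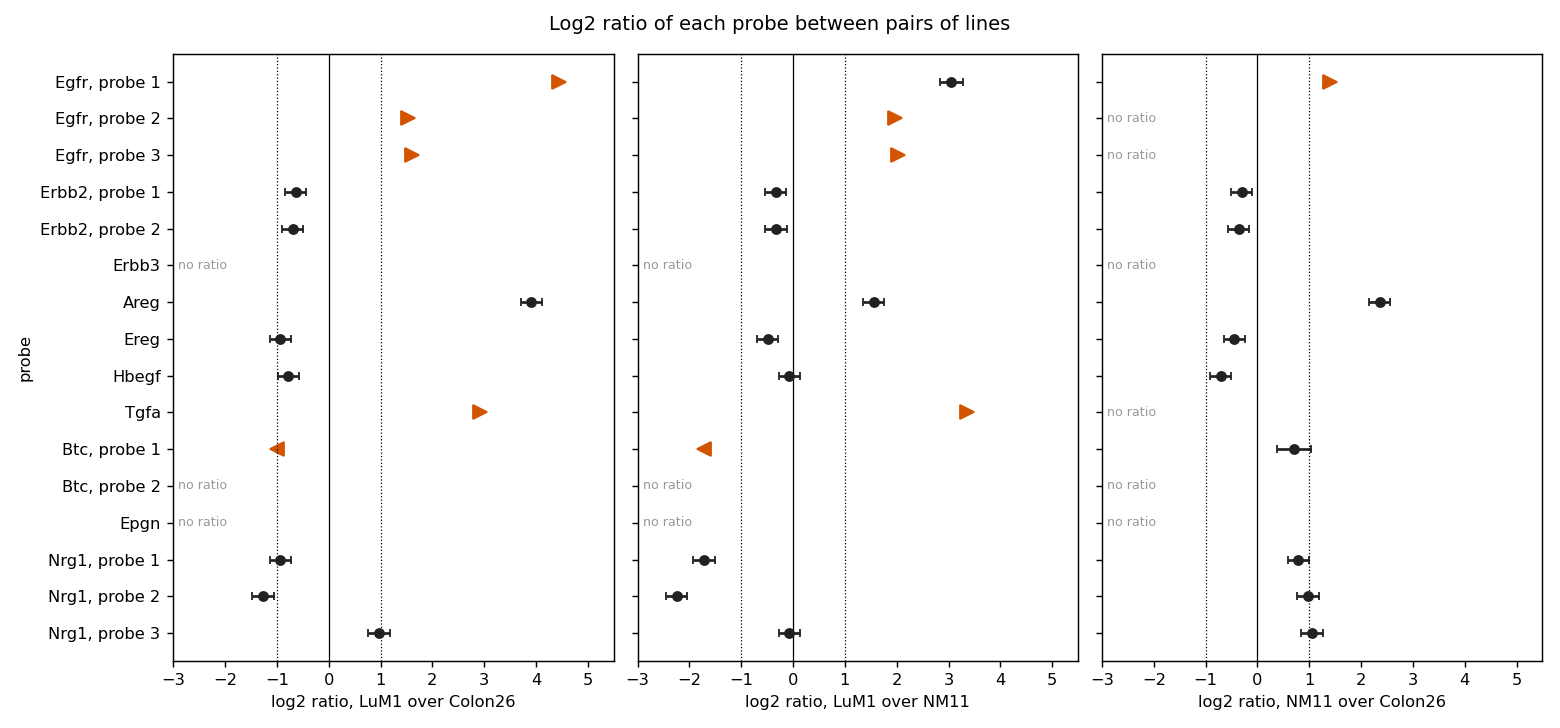
Log2 ratio of each probe for LuM1 over Colon26, LuM1 over NM11 and NM11 over Colon26 cells, 1 array per line. Points are measured ratios with the scanner error, triangles are bounds that point away from 0, the dotted lines mark 2-fold, and the *Nrg1* probes fall on both sides of 0 for LuM1 over Colon26 cells (-0.93, -1.27 and 0.98).

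The 5 genes of the family outside the 10, *Egf*, *Nrg2*, *Nrg3*, *Nrg4* and *Erbb4*, gave 2 that were well above background. The *Egf* signal was 78.6 ± 9.71 in Colon26, 48.0 ± 6.44 in LuM1 and 28.3 ± 4.99 in NM11 cells, and that of *Nrg2* was 264 ± 27.0, 37.5 ± 5.93 and 25.5 ± 4.96 in the same order. Both were highest in Colon26, with log2 ratios of LuM1 over Colon26 cells of -0.71 for *Egf* and -2.82 for *Nrg2*. The second *Nrg2* probe was not well above background on any array, nor were the probes of *Nrg3* and *Nrg4*.

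The metalloproteases that release the ligands, their helpers, and the inhibitor *Timp3* were taken as a list of 11 genes. Of the 10 that could be compared, 2 were 2-fold or more higher in LuM1 than in both other lines (*Adam8* and *Adam19*) and 2 lower (*Adam12* and *Timp3*), where 7.33% and 4.03% of all genes were. The median log2 ratio of the list was 0.68 for LuM1 over Colon26 cells and 0.45 for LuM1 over NM11 cells, beside -0.13 and -0.11 over all genes. *Adam19* enters as a bound against Colon26 cells and is not in the first median. The count of higher genes was 4 without scaling, with scaling to *Hprt* and after quantile normalization, but 5 in the authors' processed values. The count of lower genes was 1 (*Timp3*) with normexp background correction and in the authors' values. At a 4-fold threshold 0 were higher and 1 (*Timp3*) lower.

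*Adam17*, the main sheddase of amphiregulin and TGF-alpha, had a signal of 532 in Colon26, 838 in LuM1 and 523 in NM11 cells, 1.58-fold and 1.60-fold higher in LuM1 cells. *Adam10*, the main sheddase of EGF and betacellulin, read 1454, 2335 and 2245 in the same order, and *Adam8* read 131, 912 and 264. *Adam19* was not well above background in Colon26 cells (9.19), and read 826 in LuM1 and 266 in NM11 cells. *Timp3*, an inhibitor of ADAM17, had a signal of 32606 in Colon26, 32.8 in LuM1 and 29742 in NM11 cells, a log2 ratio of -9.96 and -9.82.

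The list of receptor inhibitors and degradation held 18 genes, and the list of adaptors and signalling 27. Of the 16 and 27 that could be compared, 0 were 2-fold higher or lower in LuM1 than in both other lines, beside the same 7.33% and 4.03% of all genes. *Gab2* was higher with scaling to *Hprt* and in the authors' values, and *Ptpn1* in the latter. The medians of the lists were -0.21 in each for LuM1 over Colon26 cells, and -0.06 and -0.03 for LuM1 over NM11 cells. *Cblc*, *Grb10* and *Gab1* enter as bounds and are not in the medians against Colon26 cells. Against Colon26 cells alone, *Pik3ca*, *Pik3r1* and *Stat3* were higher in LuM1 cells and *Gab1*, *Pik3cb* and *Akt1* lower, 3 and 3 of 27 beside 12.9% and 11.7% of all genes. All of these but *Akt1* were past 2-fold in the same direction in NM11 over Colon26 cells, a comparison that shares the Colon26 array. The receptor inhibitor *Errfi1* (Mig-6), whose gene is induced by EGFR signalling, read 28503 in Colon26, 14897 in LuM1 and 45016 in NM11 cells.

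Of 23 early response genes known to be induced by the receptor, 1 was 2-fold or more higher in LuM1 than in both other lines (*Ier3*) and 4 were lower (*Egr1*, *Fosl1*, *Spry4* and *Etv5*), where 7.33% and 4.03% of all genes were. The median log2 ratio was -0.52 for LuM1 over Colon26 and -0.56 for LuM1 over NM11 cells, beside -0.13 and -0.11 over all genes. Against Colon26 cells alone, 5 of 23 were higher in LuM1 cells (*Fos*, *Dusp6*, *Spry1*, *Ier3* and *Klf10*) and 6 lower, beside 12.9% and 11.7% of all genes. Against NM11 cells alone, 1 was higher and 6 were lower, beside 11.1% and 8.5%. *Egr1*, an early growth response factor, read 11765 in Colon26, 5098 in LuM1 and 15829 in NM11 cells, and *Spry4*, a feedback inhibitor, read 725, 183 and 380. *Dusp6* read 8962, 20587 and 12107.5, and *Spry1* read 5.93 (not well above background), 463 and 595. *Ier3*, an early response gene of cell survival, read 2717, 7740 and 3686 in the same order. The count of genes lower in LuM1 than in both other lines depended on the setting. It was 2 without scaling and with normexp background correction, and 1 with scaling to *Hprt* or quantile normalization. With the authors' processed values it was 0, and 3 were higher than in both (*Dusp6*, *Spred1* and *Ier3*). At a 4-fold threshold 0 were higher or lower than in both.

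**Figure D3:**
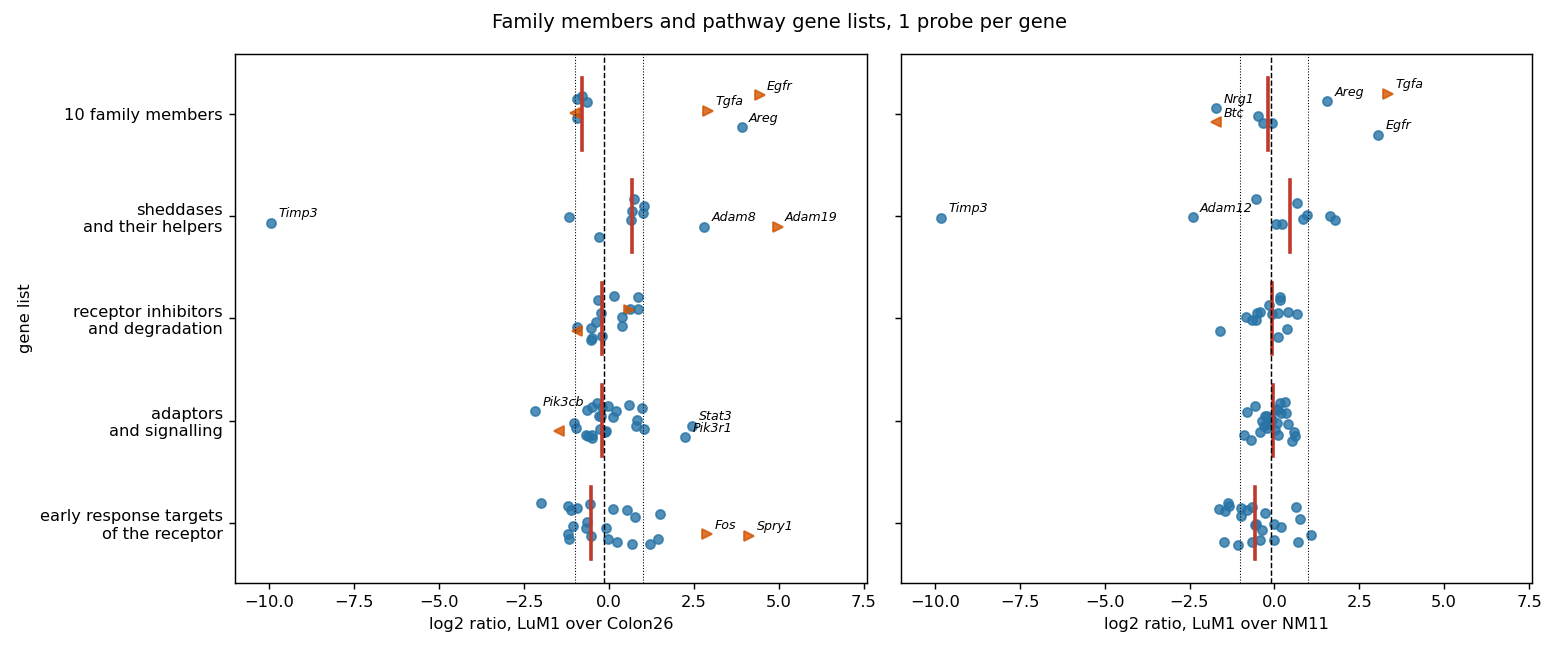
Log2 ratio of the family genes and of 4 pathway lists, 1 probe per gene, for LuM1 over Colon26 and LuM1 over NM11 cells. Points are measured ratios, triangles bounds, red bars the median of the measured ratios in each list (-0.78, 0.68, -0.21, -0.21 and -0.52 from top to bottom for LuM1 over Colon26 cells), the dashed line the median of all genes and the dotted lines 2-fold.

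Of 12248 genes measured in every line, those with the pattern most like that of *Areg* over the 3 lines were *Pdgfra* (distance of 0.20 between mean-centred log2 signals), *Glrx* (glutaredoxin, 0.24), *Il18* (interleukin 18, 0.27), *Trp53inp2* (0.30) and *C1ra* (a complement protease, 0.30). *Pdgfra*, the alpha receptor for platelet-derived growth factor, read 218 in Colon26, 3965 in LuM1 and 1286 in NM11 cells, which is 18.2-fold and 3.08-fold higher in LuM1 cells. With 3 lines, many genes can share 1 order.

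Some markers of other cells were also higher in LuM1 cells and others were not. Of 10 leukocyte markers, 5 were well above background in Colon26, 7 in LuM1 and 5 in NM11 cells, with a summed signal of 7706, 17630 and 6817. The *Cd68* signal was 172 in Colon26, 5251 in LuM1 and 299 in NM11 cells, and that of *Cd14* was 1153, 4175 and 988. *Csf1r* (682, 691 and 675) and *Cd3e* (628, 509 and 553) were within 2-fold in the same order. The defining markers *Ptprc*, *Adgre1* and *Itgax* were not well above background on any array. Of the mesenchymal markers, *Dcn* and *Thy1* had Colon26 spots not well above background and read 27503 and 19560 in LuM1 and 9599 and 15416 in NM11 cells, whereas *Col1a2* read 59896 in Colon26, 49.6 in LuM1 and 85275 in NM11 cells. The part of these markers in the levels of *Egfr*, *Areg* and *Tgfa* was not tested. Of 8 endothelial markers, only *Pecam1* was well above background.

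The ratios of the family genes were set against the choice of scaling and filter. *Egfr*, *Areg* and *Tgfa* each kept a ratio of LuM1 to Colon26 cells of 2-fold or more under all 11 alternatives. The log2 ratio ranged from 3.62 to 4.36 for *Areg*, from 2.53 to 6.27 for *Egfr* and from 1.46 to 3.90 for *Tgfa*, with bounds included. The highest values of *Egfr* and *Tgfa* took the Colon26 signal, which was not well above background, as measured. For LuM1 over NM11 cells it ranged from 1.5 to 2.14 for *Areg*, from 2.21 to 3.64 for *Egfr* and from 1.58 to 3.94 for *Tgfa*, the lowest of each being with normexp background correction.

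**Figure D4:**
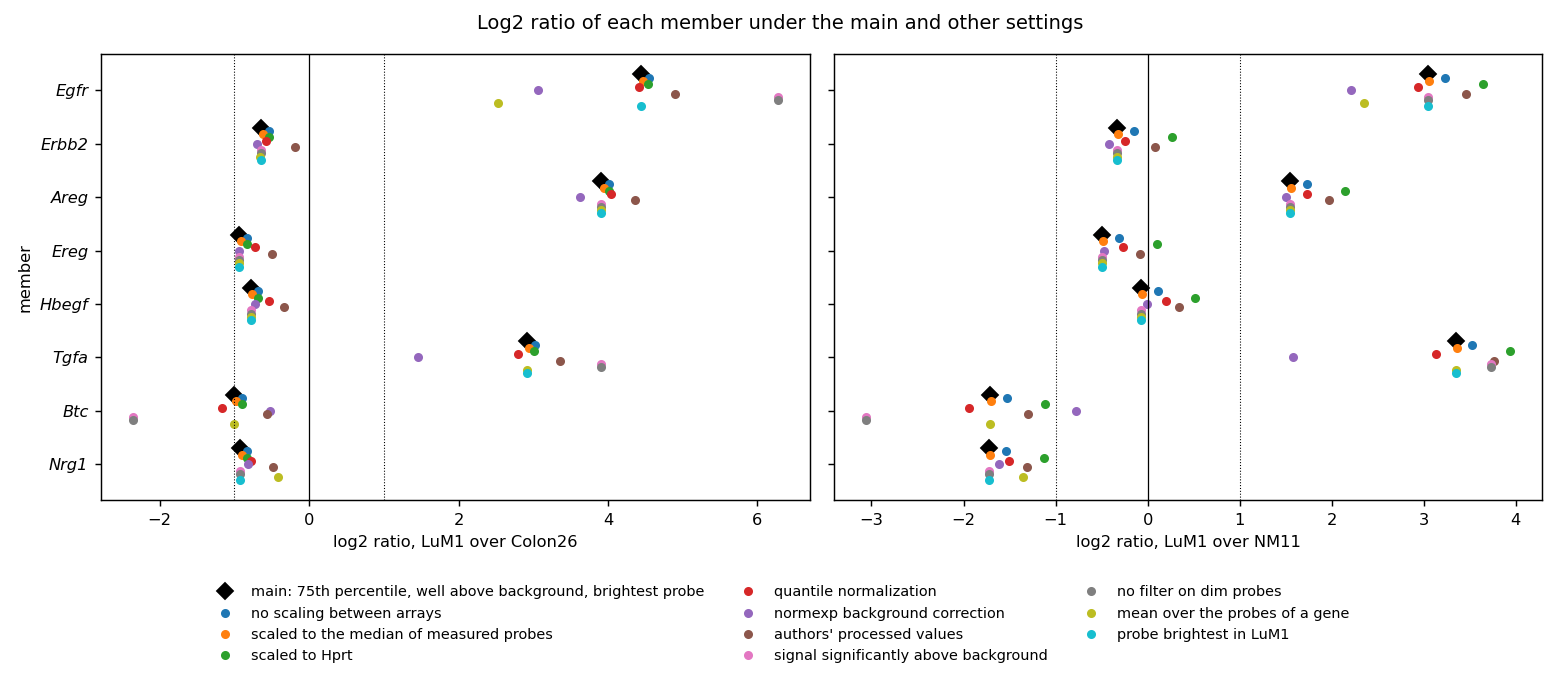
Log2 ratio of the family genes for LuM1 over Colon26 and LuM1 over NM11 cells under the main setting and its alternatives, 1 point per setting, with bounds drawn like measured ratios and the 4-fold threshold, which moves no ratio, left out. *Areg* stayed between 3.62 and 4.36 for LuM1 over Colon26 cells, and *Hbegf* crossed 0 for LuM1 over NM11 cells (-0.07 to 0.52).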

How the data were processed

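One Agilent mouse expression array per line was analysed, 3 in all. The authors deposited spot intensity values made with Feature Extraction 11.5.1.1, background-subtracted and detrended by the software but not scaled between arrays, with its error estimate. Other flags of 0 or 1 that they deposited mark outliers, saturation and spots above background. The paper names no normalization. A table of processed intensity values that the authors deposited equals the scanner intensity times 1 factor per array (0.654, 0.829 and 0.706 for Colon26, LuM1 and NM11 cells) and was used as an alternative.

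Control spots were left out, and arrays were scaled to their 75th percentile over all other spots, outlier spots included. Outlier spots (137, 74 and 99) were then left out, and the remaining spots of a probe were averaged. Of 56605 probes, 32994 (58.3%) were named through RefSeq accessions (mouse GRCm38.p6). A gene was represented by its probe of highest mean log2 signal. A ratio with 1 spot not well above background is a bound against the lowest signal well above background on that array, and with both below it no ratio was given. A gene was counted as higher or lower from 2-fold. The scanner error and the number of arrays limit the precision. The median SD between spots of a repeated probe was 0.036 to 0.040 (log2) within an array.

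The genes named were all family members and the other family genes, the pathway genes 2-fold apart from both lines (at most 4 per list and direction), *Hprt*, and the 5 genes nearest to *Areg* in pattern. Further pathway genes were chosen after their values were seen. The family, the lists and the alternatives were chosen with earlier results of these data known. The alternatives were no scaling, scaling to the median or to *Hprt*, quantile normalization, normexp (offset 50, limma 3.58.1, run on the median spot brightness that the files hold), the authors' values, a looser detection rule, no filter, the mean of probes, the LuM1-brightest probe, and a threshold of 4-fold. The steps were run in Python 3.11.15. The calling rule was tested on simulated data with changes planted in bright genes only. Bounds, as for *Egfr* and *Tgfa* against Colon26 cells, were hardly tested by it.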

Additional observations from a re-analysis of the deposited data

How the results depend on the processing

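No paired analysis was possible because there was 1 array per line, and no array could be left out. A measured ratio of a family gene counted as unmoved where its shift under an alternative was below its scanner error. Bounds are given without such an error here, and some that counted as unmoved shifted by more than the errors of measured ratios. *Btc* for LuM1 over NM11 cells, for instance, went from -1.71 to -1.12 with scaling to *Hprt*. Of 227 values of single family genes under the alternatives, 176 counted as unmoved, 44 as moved and 7 changed sign. All 7 were ratios of LuM1 to NM11 cells: *Erbb2* at 0.26 with scaling to *Hprt* and 0.08 in the authors' values, *Ereg* at 0.10 with scaling to *Hprt*, and *Hbegf* at 0.11 without scaling, 0.52 with *Hprt*, 0.20 with quantile normalization and 0.34 in the authors' values. Of 88 counts, 61 stayed within 1.5 times. The genes higher in LuM1 cells than in Colon26, in NM11 and in both numbered 5 with the looser detection rule and with no filter, which add *Erbb3* and *Epgn*. The genes lower in LuM1 than in Colon26 cells, and than in both, numbered 0 without scaling, with scaling to the median or *Hprt*, with normexp, in the authors' values, with the probe brightest in LuM1 cells and at 4-fold. Those lower than in NM11 cells numbered 1 with normexp and with the probe brightest in LuM1 cells, and 0 at 4-fold. Those higher in NM11 than in Colon26 cells numbered 1 (*Areg*, without *Egfr*) with *Hprt*, with normexp and at 4-fold, and those lower numbered 1 with *Hprt*.

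The scalings moved the median of all genes, for LuM1 over Colon26 and over NM11 cells, by 0.11 and 0.18 without scaling, by 0.10 and 0.59 with *Hprt*, and by 0.45 and 0.41 in the authors' values, and with *Hprt* that of NM11 over Colon26 cells by -0.49. Genes higher in LuM1 than in Colon26 cells made up 52.5% of those called (77.7% in the authors' values), and against NM11 cells 56.6% (68.6% without scaling, 87.8% with *Hprt*, 81.4% in the authors' values). For NM11 over Colon26 cells the share was 51.4% (20.1% with *Hprt*). The looser rule and no filter called 2582 genes higher and 2716 lower in LuM1 than in Colon26 cells, against 1856 and 1679. Beyond what scaling and thresholds do by construction, the cause was not tested. Signals near background, as of *Btc*, *Erbb3* and *Epgn*, limit what can be said of those genes.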
